A study of Homo sapiens with 10 samples.

Results

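DNA methylation was examined over 40 genes of the germline, of meiosis and of the piRNA pathway in HEK293T cells, an immortalised line derived from human embryonic kidney. The genes were taken from a given list, and every MeDIP peak that overlapped a gene body or the 2 kb on either side of it was counted. All 40 genes were found among the 19974 protein-coding genes of the RefSeq annotation of GRCh38.p14. In methylated DNA immunoprecipitation (MeDIP), sheared DNA is pulled down by an antibody that binds 5-methylcytosine, so a peak marks a stretch in which methylated cytosines are dense. Of the 10 samples, 5 were antibody libraries and 5 were inputs taken without antibody, and each of the 5 conditions contributed 1 peak list. The conditions were KD, which the series' design text gives as a knockdown of KCNQ1OT1_K, EV, K rep KO, K non-rep KO cells and WT, all in HEK293T cells grown in the same medium. KCNQ1OT1 is a long non-coding RNA of an imprinted domain. What EV, K, rep and non-rep stand for is not written in the labels, nor whether a knockout was 1 clone or a pool. Conditions have a single list each and no replicate, so no p-value is given, and intervals cover counting error only. The lists hold no RNA, so neither the cell type nor the perturbation could be checked on them.

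The peak lists held 53919 peaks in KD, 87815 in EV, 59098 in K rep KO, 53396 in K non-rep KO cells and 30732 in WT. The depth of the antibody libraries, worked out from the peaks, lay between 0.75 and 0.943 of that of EV in the other 4 conditions. WT stood apart, with the fewest and widest peaks, of median width 748 bp against 505 to 522 bp in the other lists. The genes on the list held 94 peaks in KD, 143 in EV, 116 in K rep KO, 97 in K non-rep KO cells and 52 in WT. The fragments piled up at the summit of these peaks had a median of 11 to 16 per list, so a peak rests on few fragments and its absence does not show that the site was unmethylated.

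Germ cells carry out meiosis, in which homologous chromosomes pair along the synaptonemal complex, are held by meiotic cohesin and recombine at programmed breaks. They also make piRNAs, small RNAs that guide PIWI proteins to silence transposons with the help of Tudor-domain proteins. Somatic cells keep many of these genes silent, and for a subset of them, known best from mouse, DNA methylation of a CpG-rich promoter is part of that silencing.

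The sequences below are start windows chosen by the number of lists with a peak over them and, among equal numbers, by the highest fold enrichment, so TDRD12 is shown and MAEL, BRDT and STAG3, also with peaks in 2 lists, are not. They show how many CpG dinucleotides, the substrate of DNA methylation, lie in such a window. A start window runs from 250 bases before to 50 bases after a gene start given by RefSeq, and 33 of the 40 genes had at least 1 such window. TEX14, TEX15, TEX19, PIWIL2, PIWIL4, MEIOB and HORMAD1 had none in the table used, so they enter no count of start peaks. HORMAD1 peaks in EV, K rep KO, K non-rep KO and WT lay over 150720895, an end of its span on chromosome 1. PIWIL4 peaks in KD, EV and K rep KO lay over 94567368, an end of its span on chromosome 11. Whether these ends are the gene starts was not worked out. Sequences are from RefSeq, build GRCh38.p14, written 5′ to 3′ along the gene, with every CpG in capitals. The windows lie at SYCP1 chr1:114854613-114854912 on the plus strand, HORMAD2 chr22:30080214-30080513 on the plus strand, BOLL chr2:197785270-197785569 on the minus strand, TDRD1 chr10:114179037-114179336 on the plus strand, ASZ1 chr7:117427444-117427743 on the minus strand, TDRD12 chr19:32719517-32719816 on the plus strand.
SYCP1: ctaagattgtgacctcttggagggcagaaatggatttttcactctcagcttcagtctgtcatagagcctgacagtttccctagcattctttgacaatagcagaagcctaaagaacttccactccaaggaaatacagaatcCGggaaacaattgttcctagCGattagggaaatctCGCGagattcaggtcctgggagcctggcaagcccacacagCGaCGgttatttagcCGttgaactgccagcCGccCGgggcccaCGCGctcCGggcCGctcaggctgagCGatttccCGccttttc
HORMAD2: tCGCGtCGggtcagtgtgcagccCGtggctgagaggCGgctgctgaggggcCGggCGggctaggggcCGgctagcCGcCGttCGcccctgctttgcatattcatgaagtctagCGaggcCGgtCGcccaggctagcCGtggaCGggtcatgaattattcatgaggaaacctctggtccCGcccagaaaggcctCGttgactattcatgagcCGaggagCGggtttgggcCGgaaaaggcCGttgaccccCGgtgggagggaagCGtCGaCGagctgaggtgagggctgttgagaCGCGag
BOLL: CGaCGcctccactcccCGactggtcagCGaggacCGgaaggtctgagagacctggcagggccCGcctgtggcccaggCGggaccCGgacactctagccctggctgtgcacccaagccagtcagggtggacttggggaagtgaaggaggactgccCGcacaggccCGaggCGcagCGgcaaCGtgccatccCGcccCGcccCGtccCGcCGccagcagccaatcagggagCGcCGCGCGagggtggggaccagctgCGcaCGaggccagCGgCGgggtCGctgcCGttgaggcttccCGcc
TDRD1: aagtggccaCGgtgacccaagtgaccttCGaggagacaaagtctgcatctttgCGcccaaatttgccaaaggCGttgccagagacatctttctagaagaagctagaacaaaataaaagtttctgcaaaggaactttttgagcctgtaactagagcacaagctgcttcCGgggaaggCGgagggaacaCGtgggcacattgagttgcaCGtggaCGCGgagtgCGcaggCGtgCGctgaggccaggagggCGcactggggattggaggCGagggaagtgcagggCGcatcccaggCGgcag
ASZ1: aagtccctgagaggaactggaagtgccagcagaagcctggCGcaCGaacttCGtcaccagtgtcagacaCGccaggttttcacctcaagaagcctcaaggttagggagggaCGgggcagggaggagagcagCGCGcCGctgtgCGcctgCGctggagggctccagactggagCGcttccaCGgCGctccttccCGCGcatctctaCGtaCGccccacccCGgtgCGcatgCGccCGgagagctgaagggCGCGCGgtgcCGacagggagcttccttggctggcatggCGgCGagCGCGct
TDRD12: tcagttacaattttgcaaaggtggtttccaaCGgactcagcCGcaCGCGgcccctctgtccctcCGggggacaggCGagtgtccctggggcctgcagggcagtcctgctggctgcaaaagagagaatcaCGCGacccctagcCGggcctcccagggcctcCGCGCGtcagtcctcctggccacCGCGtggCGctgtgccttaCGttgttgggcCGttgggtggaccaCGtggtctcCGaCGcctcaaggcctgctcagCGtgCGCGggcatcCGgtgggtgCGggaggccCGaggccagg

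These 6 windows held 15 CpG in SYCP1, 28 in HORMAD2, 29 in BOLL, 17 in TDRD1, 29 in ASZ1 and 26 in TDRD12. SYCP1 encodes the transverse filament of the synaptonemal complex, and HORMAD2 a protein of unsynapsed chromosome axes. BOLL is an RNA-binding protein of the DAZ family, TDRD1 and TDRD12 are Tudor-domain proteins of the piRNA pathway, and ASZ1 is a piRNA pathway protein of the mitochondrial surface. Over the 19 windows of the listed genes that carried a peak in some list the number of CpG ran from 10 to 32, with a median of 26. The 30 windows of the listed genes without a peak held from 1 to 60 CpG, with a median of 21.5, so the groups overlap. Among all 22132 windows of protein-coding genes the median was 21, and it was 15 in the 1516 windows with a peak in some list.

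A peak lay over a start window in some list in 16 of the 33 genes, beside 8.39% of the 15812 protein-coding genes with a window. By list, 8 of the 33 genes carried a start peak in KD, 12 in EV, 6 in K rep KO, 5 in K non-rep KO cells and 1 in WT. These are 24.2% of the genes in KD, 36.4% in EV, 18.2% in K rep KO, 15.2% in K non-rep KO cells and 3.03% in WT. Over all protein-coding genes with a window the shares were 3.43% in KD, 5.44% in EV, 3.30% in K rep KO, 2.69% in K non-rep KO cells and 0.879% in WT. In each list the share of the listed genes was the higher, and in WT it rests on 1 gene. Gene groups were not matched on CpG content. By CpG number, EV peaks covered 0 of 8 windows of the listed genes with 0 to 9 CpG, beside 3.27% of windows of all protein-coding genes, and 4 of 10 with 10 to 19 CpG, beside 11.5%. They covered 10 of 18 with 20 to 29 CpG, beside 4.40%, 1 of 8 with 30 to 39, beside 1.80%, and 0 of 5 with 40 or more, beside 0.322%. In WT 0 of the 18 windows with 20 to 29 CpG carried a peak, beside 0.718%, and 1 of the 10 with 10 to 19, beside 1.92%.

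Beside the 8.39% of all protein-coding genes, 7 of 12 piRNA pathway genes with a window carried a start peak in some list. Among genes of the chromosome axis, synapsis and cohesin 5 of 7 did. None of the 4 recombination genes with a window did. Within 1 kb of a start, 2 of these 4 had a peak in KD and 2 in K rep KO, beside 11.4% and 11.6% of protein-coding genes, and 0 in the other lists. Their lack of start peaks thus depends on the width of the window. MEIOB, the recombination gene without a window, is not in these counts. It had a site in all 5 lists at 1872288 to 1874890, just outside its span of 1833986 to 1872164. Among genes of germ cell identity and RNA binding it was BOLL alone, of 5, and among other testis and cancer-testis genes it was BRDT, CTCFL and STK31, of 5.

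**Figure D1:**
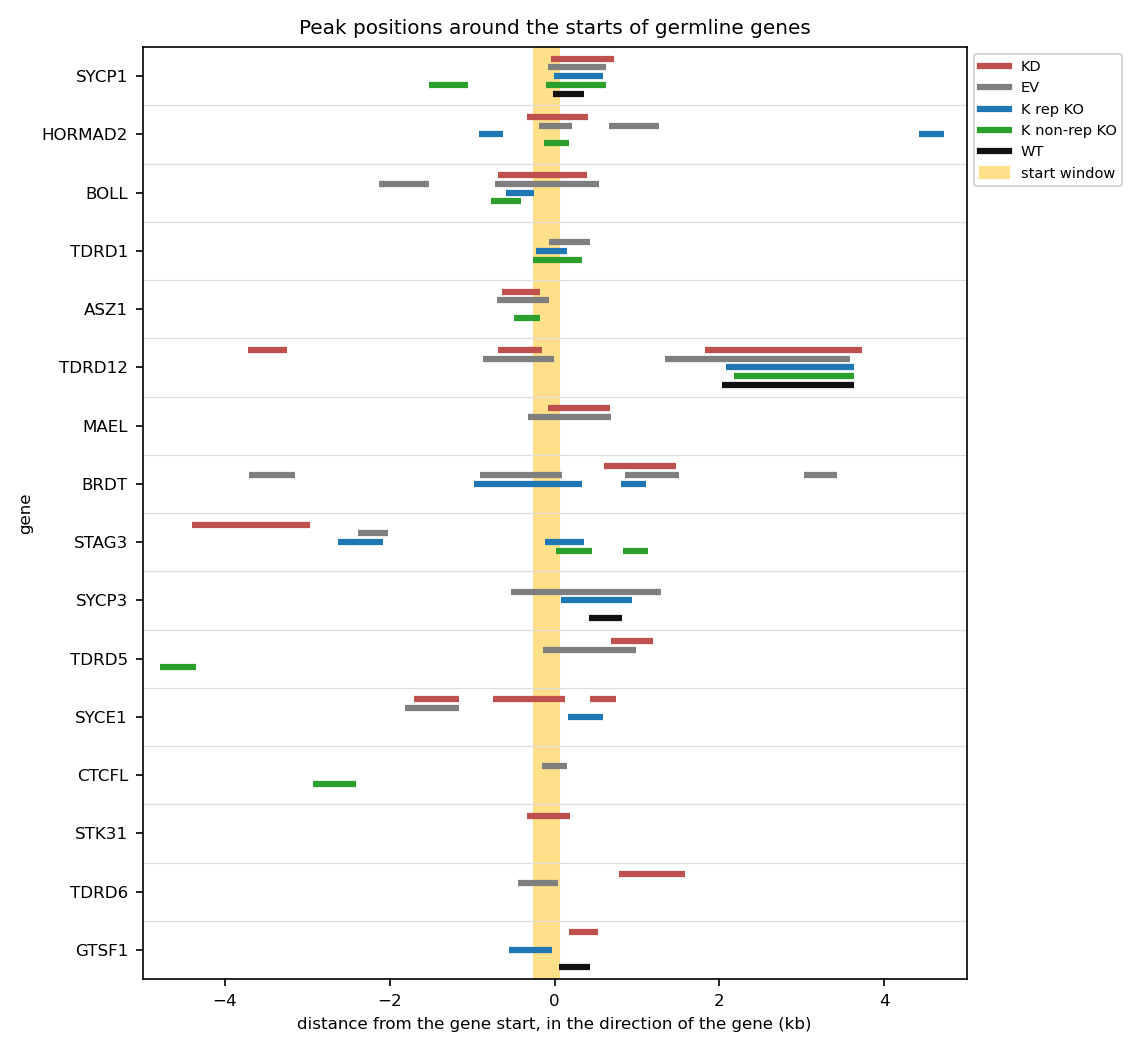
Positions of peaks (horizontal bars, coloured by list) within 5 kb of the start of the 16 genes that carried a start peak, as distance from the start in kb along the gene; the shaded band is the start window. SYCP1 has a bar over the band in all 5 lists, and WT has no bar over the band in the other 15 genes.

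SYCP1 (chromosome 1, 114854088 to 114995370) was the listed gene with a start peak in every list. The summit held 11 fragments in KD, 13 in EV, 11 in K rep KO, 12 in K non-rep KO cells and 7 in WT. The local background was 3.11, 3.76, 2.04, 1.7 and 1.5 fragments in the same order of lists. The merged site ran from 114854762 to 114855590, across the start used for its window, at 114854863. This start lies inside the gene span given here.

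HORMAD2 (chromosome 22, 30077732 to 30207456) carried a start peak in KD, EV and K non-rep KO, with 14, 10 and 12 fragments at the summit. The start used for its window, at 30080464, lies inside this span. K rep KO had its nearest peak at -629 bases from the start, and WT had none within 5 kb. BOLL (chromosome 2, 197726890 to 197786206) had a start peak of 9 fragments in KD, 15 in EV and 10 in K rep KO. These peaks lay over the window of its start at 197785319. Its K non-rep KO peak ended at -403 bases from that start and began 111 bases after its other start, at 197786206. It lay outside both windows but within the same merged site, so all lists except WT had a peak at this site. TDRD1 (chromosome 10, 114174874 to 114232666) had a start peak of 10 fragments in EV, 9 in K rep KO cells and 10 in K non-rep KO, and no peak in KD or WT anywhere in its region. The starts used for its windows, at 114179287 and 114179353, also lie inside the gene span. ASZ1 (chromosome 7, 117363222 to 117427493) had 9 fragments in KD, 10 in EV and 8 in K non-rep KO, and no peak in K rep KO or WT.

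TDRD12 (chromosome 19, 32719767 to 32829580) and MAEL (chromosome 1, 166975582 to 167022214), a piRNA pathway gene of the germline nuage, had start peaks in KD and EV alone. The TDRD12 peaks held 11 fragments in KD and 16 in EV, and the MAEL peaks 14 in KD and 16 in EV. The MAEL peaks lay at its start at position 166989280. The window of its other start, at 166975582, held 60 CpG and no peak in any list. BRDT (chromosome 1, 91949371 to 92014428), the testis bromodomain protein, had start peaks of 13 fragments in K rep KO and 13 in EV. STAG3 (chromosome 7, 100177724 to 100219334), a meiotic cohesin subunit, had 9 in K rep KO cells and 7 in K non-rep KO. The STAG3 start peaks also lie in the region of the neighbouring gene GPC2.

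In 7 genes a start peak was present in 1 list only. In EV these were SYCP3, of the synaptonemal complex, with 18 fragments, TDRD5 with 15, TDRD6 with 11 and CTCFL, a testis paralogue of CTCF, with 10. In KD they were SYCE1, of the central element of the synaptonemal complex, with 10 fragments and STK31, a testis kinase-like gene, with 9. In K rep KO it was GTSF1, a piRNA pathway zinc finger protein, with 9. For SYCP3, other lists had peaks just inside the gene: the K rep KO peak began 78 bases after the start and the WT peak 420 bases after it. For GTSF1 the KD peak began 180 and the WT peak 59 bases after the start. For SYCE1 the K rep KO peak began 166 bases after the start. The KD peak began 470 bases after the nearest start in TDRD5 and 785 bases after the start in TDRD6. The TDRD5 peaks of KD and EV belonged to the same merged site. These peaks lie outside the window and are not counted as start peaks.

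The 32 start peaks had 7 to 18 fragments at the summit over a local background of 1.02 to 3.76 fragments. The authors' fold enrichment of these peaks ran from 2.92 to 6.42 in KD, 2.94 to 7.81 in EV, 2.78 to 4.79 in K rep KO and 3.47 to 6.10 in K non-rep KO, and was 3.2 in WT. With −log10 q of 5 or more, start peaks were left in 2 genes in KD, 6 in EV, 0 in K rep KO, 2 in K non-rep KO cells and 0 in WT, beside 1.25%, 2.65%, 1.49%, 0.873% and 0.43% of protein-coding genes in the same order. With the window widened to 1 kb on both sides of the start, 20 genes had a peak in KD, 19 in EV, 19 in K rep KO, 11 in K non-rep KO cells and 5 in WT, beside 11.4%, 18.3%, 11.6%, 10.0% and 3.78% of protein-coding genes.

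**Figure D2:**
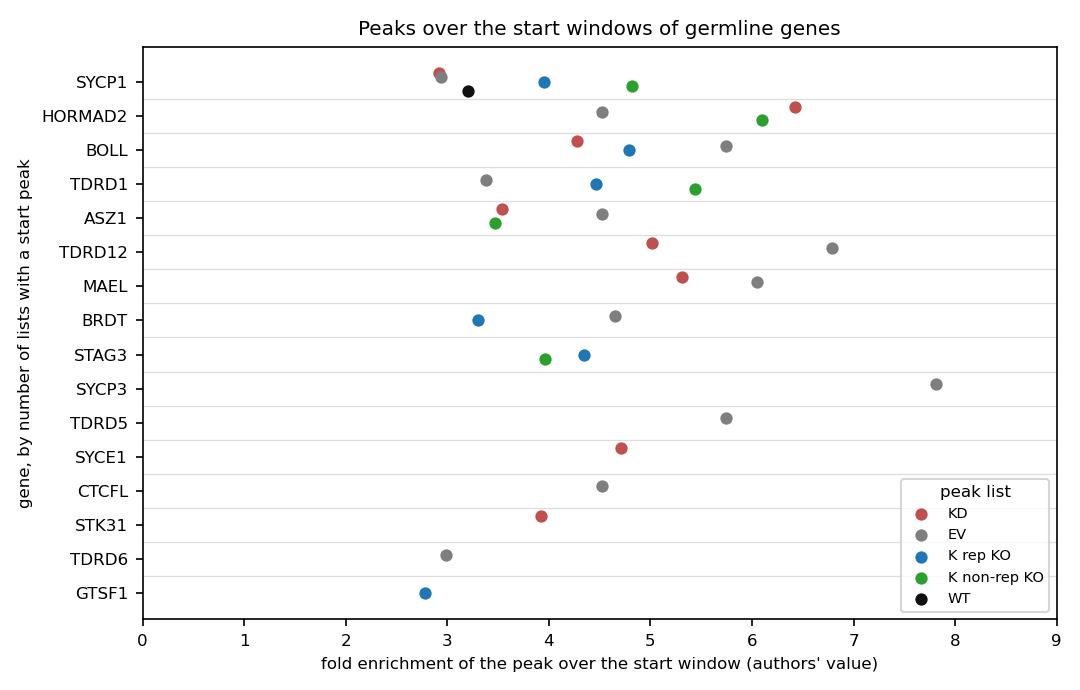
The authors' fold enrichment of each peak over a start window (x axis, from 0) for the 16 genes with such a peak, 1 point per list; values are the peaks' own and are not scaled between lists. The points lie between 2.78 for GTSF1 in K rep KO and 7.81 for SYCP3 in EV.

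**Figure D3:**
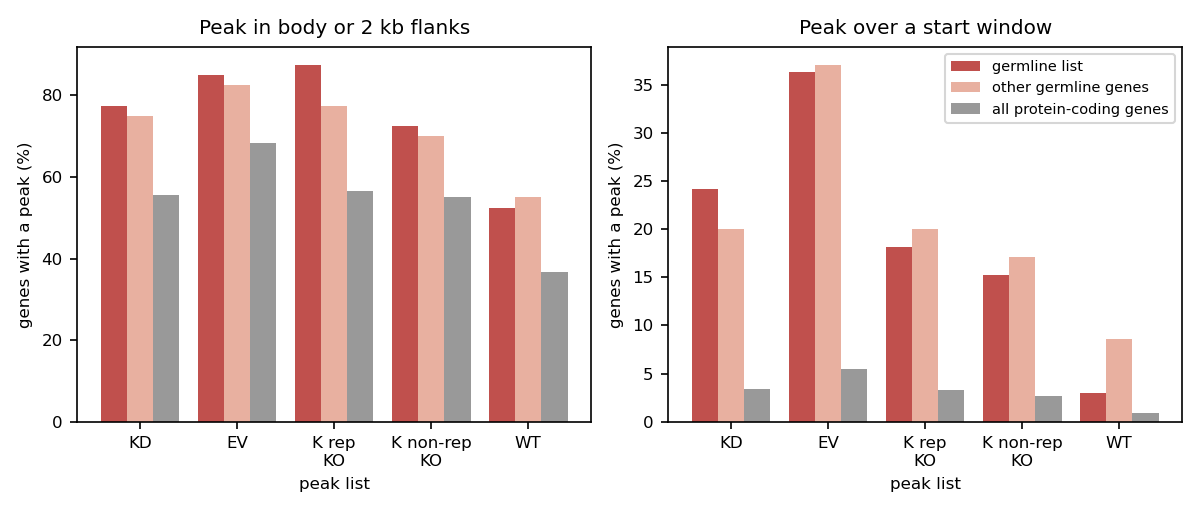
Share of genes (in percent) with a peak in the gene body or its 2 kb flanks (left) and over a start window (right), for the listed germline genes, a second list of 40 germline genes and all protein-coding genes, by peak list. Over start windows the listed genes stand at 36.4% and all protein-coding genes at 5.44% in EV.

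Over gene bodies and flanks, 31 of the 40 genes held a peak in KD, 34 in EV, 35 in K rep KO, 29 in K non-rep KO cells and 21 in WT. Among protein-coding genes the shares were 55.5% in KD, 68.3% in EV, 56.6% in K rep KO, 55.2% in K non-rep KO cells and 36.7% in WT. The listed genes are longer, with a median length of 57.6 kb against 24.2 kb, and a longer gene can hold more peaks. Per length the listed genes held 3.80 peaks per 100 kb in KD, 5.79 in EV, 4.69 in K rep KO, 3.93 in K non-rep KO cells and 2.10 in WT. All protein-coding genes held 2.46, 4.19, 2.63, 2.38 and 1.10 peaks per 100 kb in the same order. A peak was present in some list in 39 of the 40 genes, against 78.1% of protein-coding genes, and in every list in 17, against 28.4%. SPO11, which makes the breaks that start meiotic recombination, held no peak in any list.

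**Figure D4:**
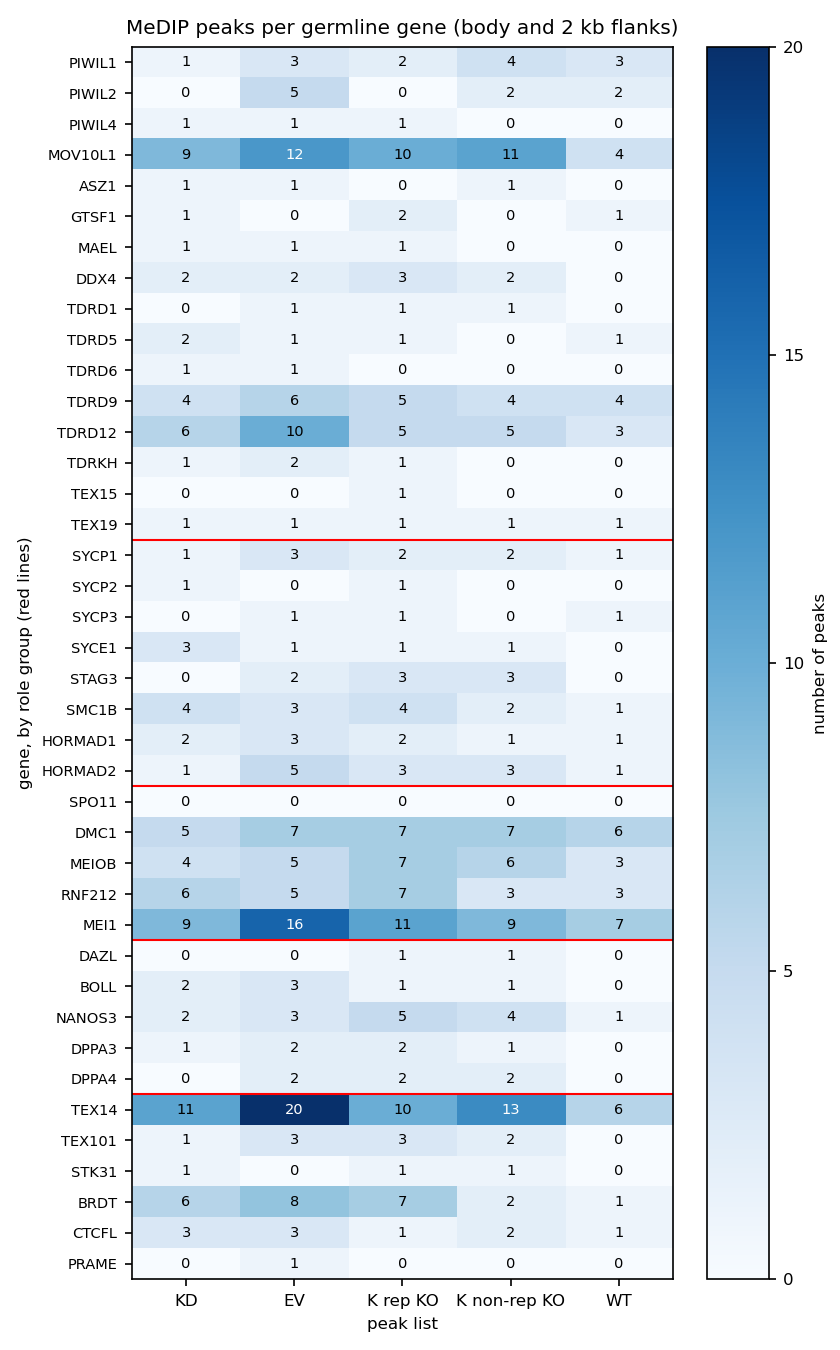
Number of peaks in the body and 2 kb flanks of each of the 40 genes (rows, grouped by role between red lines, in the order piRNA pathway, axis and cohesin, recombination, germ cell identity, other) in each list (columns). TEX14 and MEI1 hold the most peaks, 20 and 16 in EV, and the WT column is the palest.

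Among piRNA pathway genes, MOV10L1 (chromosome 22, 50090006 to 50161687), the helicase of piRNA production, held 9 peaks in KD, 12 in EV, 10 in K rep KO, 11 in K non-rep KO cells and 4 in WT. WT was the lowest by 5 peaks. A site at 50090367 to 50091349, which begins 361 bases after its start, had a peak in all 5 lists. TDRD12 held 6, 10, 5, 5 and 3 peaks, and TDRD9, a Tudor-domain helicase (chromosome 14, 103928456 to 104052667), held 4, 6, 5, 4 and 4, in the order KD, EV, K rep KO, K non-rep KO cells and WT. PIWIL1, a PIWI protein, held 1, 3, 2, 4 and 3 peaks and PIWIL2, another, 0, 5, 0, 2 and 2 in that order, so PIWIL2 was without a peak in KD and K rep KO. DDX4, the germ cell RNA helicase, held 2 or 3 peaks in each list except WT, which had 0. The other piRNA genes, PIWIL4, TDRD5, TDRD6, TDRKH, MAEL, ASZ1, GTSF1, TDRD1, TEX15 and TEX19, held 0 to 2 peaks per list. TEX15 had a single peak, in K rep KO, and TEX19 had 1 peak in every list.

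Recombination genes held more peaks for their length than any of the other role groups in each of the 5 lists. The densities were 8.25 peaks per 100 kb in KD, 11.3 in EV, 11 in K rep KO, 8.6 in K non-rep KO cells and 6.53 in WT. MEI1, a gene needed for meiotic break formation in mouse (chromosome 22, 41699503 to 41799454), held 9, 16, 11, 9 and 7 peaks in the order KD, EV, K rep KO, K non-rep KO cells and WT. Of its sites 7 had a peak in all 5 lists, the first at 41699999 to 41702959, just inside the gene. DMC1, the meiotic recombinase, held 5, 7, 7, 7 and 6 peaks, a spread of 2. MEIOB, a single-strand DNA binding protein of meiosis (chromosome 16, 1833986 to 1872164), held 4, 5, 7, 6 and 3. RNF212, a crossover factor, held 6, 5, 7, 3 and 3. All 4 genes held peaks in every list.

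In the group of axis, synapsis and cohesin genes, HORMAD2 held 1 peak in KD, 5 in EV, 3 in K rep KO, 3 in K non-rep KO cells and 1 in WT. SYCE1 held 3, 1, 1, 1 and 0 in that order, so KD had the most and WT none. STAG3 held 0, 2, 3, 3 and 0, so it was without a peak in KD and WT. SMC1B, the meiotic SMC1 subunit of cohesin, held 4, 3, 4, 2 and 1. SYCP1, SYCP2, SYCP3 and HORMAD1 held 0 to 3 peaks per list, and both SYCP2 peaks also lie in the region of FAM217B.

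Genes of germ cell identity held 5 peaks in KD, 10 in EV, 11 in K rep KO, 9 in K non-rep KO cells and 1 in WT, which lay in NANOS3. NANOS3, an RNA-binding protein of primordial germ cells (chromosome 19, 13862036 to 13880757), held 2, 3, 5 and 4 peaks in KD, EV, K rep KO cells and K non-rep KO. DPPA3, which guards maternal methylation in the mouse zygote, held 1, 2, 2 and 1, and a site at 7711933 to 7713250 of chromosome 12 had a peak in those 4 lists. DPPA4, a pluripotency gene, held 0 in KD and 2 in each of EV, K rep KO cells and K non-rep KO. DAZL, an RNA-binding protein of germ cells, had 1 peak in K rep KO cells and 1 in K non-rep KO, and none in the other lists. Its K non-rep KO peak ended at -664 bases from the nearest start, and its K rep KO peak began 1010 bases after one.

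Of the remaining genes, TEX14, needed for intercellular bridges of germ cells (chromosome 17, 58556678 to 58692045), held 11 peaks in KD, 20 in EV, 10 in K rep KO, 13 in K non-rep KO cells and 6 in WT. Of its 60 peaks over the 5 lists 21 also lie in the region of IGBP1C. BRDT held 6, 8, 7, 2 and 1 in the same order, with a site at 91984466 to 91985956 in all 5 lists. CTCFL held 3, 3, 1, 2 and 1. TEX101, a sperm surface protein gene, and STK31 held 0 to 3 peaks per list, and PRAME, a cancer-testis antigen gene, had a single peak, in EV.

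Overlapping peaks of the 5 lists were merged into 240 sites in the 40 genes. Of these, 33 sites in 15 genes had a peak in all 5 lists, which is 13.8% of the sites against 5.98% over all protein-coding genes. A peak in a single list made up 55.0% of the sites, against 57.9%. Sites in 4 of the lists made up 3.75%, against 5.69%, and sites in 3 of the lists 9.58%, against 9.88%, so neither share was above that of all protein-coding genes. The sites in all lists except WT numbered 7, in BOLL, DMC1, DPPA3, NANOS3, TDRD12 and TEX101. Another 9 sites were found in all lists except KD and WT, among them the start of TDRD1. The share of each such combination of lists was not worked out over all protein-coding genes.

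Among the sites shared by all lists, one in MEIOB at 1869445 to 1871513 had a summit of 22 fragments in KD, 47 in EV, 37 in K rep KO, 26 in K non-rep KO cells and 48 in WT. Its EV fold enrichment of 14.7, the authors' value, was the highest of any peak in the listed genes in the EV list. The BRDT site held 17, 36, 35, 27 and 24 fragments in the order KD, EV, K rep KO, K non-rep KO cells and WT, and a CTCFL site at 57503975 to 57505548 of chromosome 20 held 22, 27, 35, 17 and 17. In MEI1 the last of the shared sites, at 41784641 to 41786238, held 37, 60, 59, 59 and 66. These summit numbers are not scaled for background, which at the MEIOB site was 1.83, 2.26, 2.41, 2.39 and 6.81 fragments and at this MEI1 site 4.34, 5.27, 3.89, 6.22 and 16.5 fragments in the same order. WT had the highest background at both sites. TDRD12 had a shared site at 32721102 to 32723496, downstream of the start window that carried a peak in KD and EV alone, with 19, 19, 18, 16 and 26 fragments. A peak in a gene region can also belong to a neighbour: 6 of the 8 STAG3 peaks also lie in the regions of GPC2 or PVRIG, 3 of the 4 TDRKH peaks also lie in the region of OAZ3, 4 of the 32 DMC1 peaks in that of DDX17 and 3 of the 14 SMC1B peaks in that of RIBC2.

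In KD against EV, the question was how the knockdown differed over these genes from the EV condition. There were 94 peaks in KD and 143 in EV, a ratio of 0.657 (95% interval 0.501 to 0.859), beside 0.587 over all protein-coding genes. Of the 40 genes 7 held more peaks in KD, 23 fewer and 7 an equal number above 0, and of all 19974 protein-coding genes 2101 held more and 9750 fewer. STK31, GTSF1 and SYCP2 had peaks in KD and none in EV, 3 of the 37 genes with a peak in either list, beside 6.20% of protein-coding genes. DPPA4, STAG3, PIWIL2, TDRD1, SYCP3 and PRAME had peaks in EV and none in KD, 6 of 37, beside 23.8%. By a 2-fold rule, a log2 of (peaks + 1)/(peaks + 1) of 1 or more in size among genes with at least 3 peaks in the lists together, 1 of 24 genes, SYCE1, was higher in KD, beside 1.95%. By this rule 5 of 24 were lower, beside 31.7%, and these were SYCP1, PIWIL2, PIWIL1, TEX101 and HORMAD2. The median log2 was -0.42, against -0.58 over all protein-coding genes. Start peaks were found in KD alone in 2 of 14 genes, STK31 and SYCE1, beside 20.4%. They were found in EV alone in 6 of 14, BRDT, CTCFL, SYCP3, TDRD1, TDRD5 and TDRD6, beside 49.7%. The shares of genes with peaks in KD alone are on either side of the background and those with peaks in EV alone below it, while with the lists cut to equal length the ratio was 1.04, on the other side of 1, beside 0.956 over all protein-coding genes. With peaks of −log10 q of 5 or more the ratio was 0.647, beside 0.412 over all protein-coding genes, so its distance from the background depends on the peak threshold.

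In K rep KO against WT there were 116 peaks in K rep KO cells and 52 in WT, a ratio of 2.23 (1.60 to 3.16), beside 2.40 over all protein-coding genes. Of the 40 genes 30 held more peaks in the K rep KO list and 2 fewer, and of the 19974 protein-coding genes 8833 held more and 1296 fewer. The median log2 was 1.00 in the listed genes and over all genes. BRDT held 7 peaks in K rep KO, against 1 in WT; in the same order NANOS3 held 5 and 1, MOV10L1 10 and 4, MEIOB 7 and 3, and RNF212 7 and 3. With peaks in K rep KO cells and none in WT there were 15 of 36 genes, beside 39.1%, among them DDX4, STAG3, TEX101 and DPPA4. PIWIL2 alone had peaks in WT and none in K rep KO, 1 of 36, beside 5.90%. By the 2-fold rule 10 of 19 genes were higher, beside 46.0%, and 0 were lower, beside 1.40%. Start peaks were in K rep KO alone in BOLL, BRDT, GTSF1, STAG3 and TDRD1, 5 of 6 genes, beside 75.5%, and in WT alone in 0 of 6, beside 7.94%. With lists of equal length the ratio was 1.27, beside 1.18 over all protein-coding genes.

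K non-rep KO was set against the same WT list. There were 97 peaks in K non-rep KO cells and 52 in WT, a ratio of 1.87 (1.32 to 2.67), beside 2.17 over all protein-coding genes. Of the 40 genes 24 held more peaks in the K non-rep KO list and 3 fewer, and of the 19974 protein-coding genes 8318 held more and 1464 fewer. The median log2 was 0.70, against 1.00 over all genes. MOV10L1 held 11 and 4 peaks in K non-rep KO cells and WT, TEX14 13 and 6, NANOS3 4 and 1, MEIOB 6 and 3, and STAG3, most of whose peaks are shared with neighbouring genes, 3 and 0. Peaks in K non-rep KO cells and none in WT were found in 11 of 32 genes, beside 38.0%. TDRD5, GTSF1 and SYCP3 had peaks in WT and none in K non-rep KO, 3 of 32, beside 6.61%. By the 2-fold rule 5 of 17 genes were higher, beside 41.4%, and 0 lower, beside 1.72%. Start peaks were in K non-rep KO alone in ASZ1, HORMAD2, STAG3 and TDRD1, 4 of 5 genes, beside 70.5%, and in WT alone in 0 of 5, beside 9.55%. With lists of equal length the ratio was 1.19, beside 1.23 over all protein-coding genes.

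Between the knockouts there were 116 peaks in K rep KO cells and 97 in K non-rep KO, a ratio of 1.20 (0.905 to 1.58), beside 1.10 over all protein-coding genes. The interval includes 1. BRDT held 7 peaks in K rep KO cells and 2 in K non-rep KO cells (interval of the ratio 0.666 to 34.5), and RNF212 held 7 and 3 (0.533 to 14). TEX14 held 10 and 13. Peaks in K rep KO and none in K non-rep KO were found in TDRKH, MAEL, TDRD5, TEX15, PIWIL4, GTSF1, SYCP3 and SYCP2, 8 of 37 genes, beside 16.6%. The reverse was found in ASZ1 and PIWIL2, 2 of 37, beside 14.5%. By the 2-fold rule BRDT and RNF212 were higher, 2 of 21, beside 12.2%, and 0 of 21 were lower, beside 7.96%. Start peaks were in K rep KO alone in BOLL, BRDT and GTSF1, 3 of 8 genes, beside 42.4%, and in K non-rep KO alone in ASZ1 and HORMAD2, 2 of 8, beside 29.4%.

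EV and WT were set against each other because KD was read against EV and both knockouts against WT, a pairing taken from the order of the conditions in the series' design text and not stated in the labels. There were 143 peaks in EV and 52 in WT, a ratio of 2.75 (1.99 to 3.85), beside 3.82 over all protein-coding genes. TEX14 held 20 and 6 peaks in EV and WT, BRDT 8 and 1, MEI1 16 and 7, MOV10L1 12 and 4, and TDRD12 10 and 3. Peaks in EV and none in WT were found in 14 of 35 genes, beside 47.5%, and GTSF1 alone was the reverse, 1 of 35, beside 2.33%. By the 2-fold rule 14 of 19 genes were higher in EV, beside 68.7%, and 0 were lower, beside 0.397%. Start peaks were in EV alone in 11 of 12 genes, beside 84.4%, and in WT alone in 0 of 12, beside 3.26%. EV and WT carry no named perturbation, and their ratio lay further from 1 than those of both knockouts over WT, with overlapping intervals. With lists of equal length the ratio was 1.10, beside 1.29 over all protein-coding genes.

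**Figure D5:**
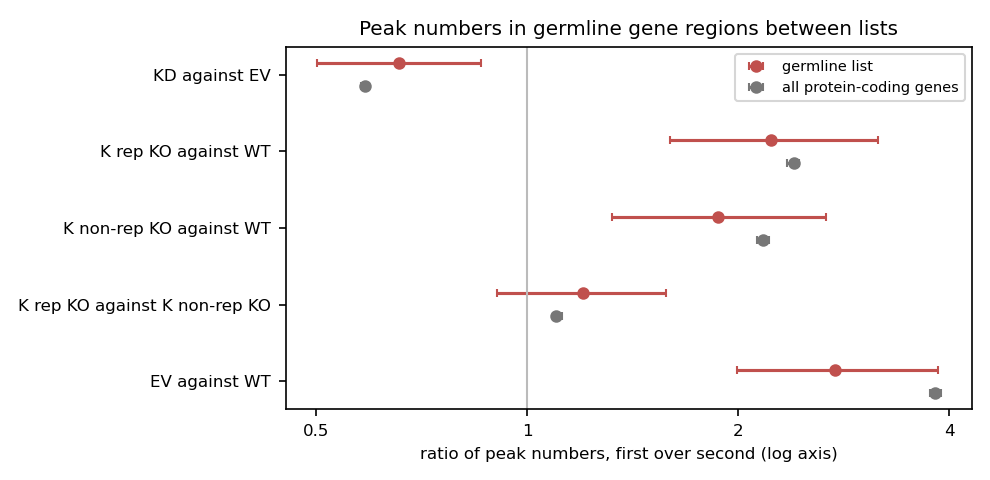
Ratio of peak numbers in the 40 germline gene regions (red) and in all protein-coding gene regions (grey) for the 5 comparisons, on a log axis, with 95% exact intervals for counting error. The ratios run from 0.657 in KD against EV to 2.75 in EV against WT, and the red interval holds the grey point in each comparison, in EV against WT only just, with an upper end of 3.85 beside 3.82.

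A second list of 40 other genes of the same pathways, all found in the annotation, was also covered most often by start peaks in EV and least often in WT. Of 35 with a window, 7 carried a start peak in KD, 13 in EV, 7 in K rep KO, 6 in K non-rep KO cells and 3 in WT. Over all protein-coding genes with a window the shares were 3.43%, 5.44%, 3.30%, 2.69% and 0.879% in the same order. These too were highest in EV and lowest in WT. The genes of this list with the most peaks over the 5 lists were IHO1, TEX11, SYCE2 and TDRD10. IHO1, a break formation factor, held 7 peaks in KD, 11 in EV, 9 in K rep KO, 8 in K non-rep KO cells and 5 in WT. The list held 78 peaks in KD and 107 in EV, a ratio of 0.729 (0.537 to 0.985), beside 0.587 over all protein-coding genes. It held 77 in K rep KO and 37 in WT, a ratio of 2.08 (1.39 to 3.17), beside 2.40 over all protein-coding genes. In K non-rep KO it held 65 against the same 37, a ratio of 1.76 (1.16 to 2.71), beside 2.17. Of the 40 genes 17 held fewer peaks in KD than in EV and 8 more, beside 9750 fewer and 2101 more of the 19974 protein-coding genes. In K rep KO 25 held more than in WT and 3 fewer, beside 8833 more and 1296 fewer. In K non-rep KO 17 held more than in WT and 3 fewer, beside 8318 more and 1464 fewer.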

How the data were processed

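MeDIP-seq was done on HEK293T cells in 5 conditions with 1 antibody and 1 input library each. The tools named are Bowtie2, MACS2 and deepTools and the build is GRCh38, per the submitters' processing notes; for versions and options, none was stated in the labels. The deposited files are narrowPeak lists: a fold enrichment, which is a ratio over the caller's background, −log10 p and −log10 q values and a score per peak, all the authors'. Fold and q were used to describe or filter peaks within a list. There was 1 further list that matched no sample label and was not used. The lists of both knockouts carry other prefixes in their peak names, so their assignment rests on the lists' names.

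Only peaks on chromosomes 1 to 22 and X entered the analysis; the other 3.56% to 5.83% of each list were dropped. Summit fragments and background were solved from fold and −log10 p with a tolerance of 0.001, as (fragments + 1)/(background + 1) and an upper Poisson tail, which succeeded for 99.9% to 100.0% of peaks. Relative depth is the commonest background divided by the shortest peak length, relative to EV. Overlap was at least 1 bp, and a peak in several gene regions counted for each. Ratios carry exact (Clopper-Pearson) 95% intervals. These treat each peak as an independent count, although lists share sites and some genes hold many peaks. The calculations (Python 3.11.15, pandas 2.3.3, scipy 1.17.1) were tested on simulated data. Members, lists and named genes were chosen with earlier results of these data known. The rule for genes described singly took those with a start peak in some list, with 10 or more peaks over the 5 lists, or with a difference of 3 or more peaks in a comparison; DAZL, DPPA3, DPPA4, PRAME, SPO11, SYCP2, TDRKH, TEX15 and TEX19 fall outside it and were named after their values were seen. Alternatives were stricter peaks, equal list lengths (cut by −log10 q to the shorter list of a comparison, or to the shortest of all for start peaks), other flanks, overlaps and windows, and covered bases.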

Additional observations from a re-analysis of the deposited data

Results flagged for a closer look

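For PIWIL1 and GTSF1, the numbers of peaks in the knockouts lay on opposite sides of the WT number. PIWIL1 held 2 peaks in K rep KO, 4 in K non-rep KO cells and 3 in WT, a difference from WT of -1 for K rep KO, against 1 for K non-rep KO. GTSF1 held 2 in K rep KO, 0 in K non-rep KO cells and 1 in WT, a difference of 1 for K rep KO, against -1 for K non-rep KO. With 1 list per condition the difference was not tested.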

How the results depend on the processing

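With lists cut to equal length by −log10 q, the ratio of peaks in the listed genes was 1.04 in KD against EV, which is above 1, 1.27 in K rep KO against WT, 1.19 in K non-rep KO against WT and 1.10 in EV against WT, beside 0.956, 1.18, 1.23 and 1.29 over all protein-coding genes; the alternative removes the difference in list length by construction. Of 34 genes with a peak in KD or EV, 5 then had peaks in KD alone and 3 in EV alone. Of 27 with a peak in K rep KO or WT, it was 6 in K rep KO alone and 3 in WT alone. Of 27 for K non-rep KO cells and WT it was 6 and 5, and of 28 for EV and WT it was 7 and 3. For such counts of genes, no share over all protein-coding genes was worked out under the alternative settings, so they cannot be set against a background. Start peaks were left in 4 genes in KD, 5 in EV, 1 in K rep KO cells and 3 in K non-rep KO, beside 2.15%, 2.21%, 1.83% and 1.59% of protein-coding genes. With −log10 q of 5 or more, peaks were in KD and not EV in 1 of 28 genes and the reverse in 6 of 28. They were in K rep KO and not WT in 9 of 22, in K non-rep KO cells and not WT in 7 of 20, and in EV and not WT in 14 of 27. Peaks in WT and not in K rep KO, K non-rep KO or EV were found in 0 each. Between the knockouts, 5 of 25 genes had peaks in K rep KO alone and 3 of 25 in K non-rep KO alone. Start peaks were left in 2 genes in KD, 6 in EV, 0 in K rep KO, 2 in K non-rep KO cells and 0 in WT, beside 1.25%, 2.65%, 1.49%, 0.873% and 0.43%. With fold enrichment of 4 or more, peaks were in WT and not K rep KO in 0 of 28 genes, in WT and not K non-rep KO in 1 of 24 and in WT and not EV in 0 of 30. Start peaks were then in 5 genes in KD, 3 in K rep KO, 3 in K non-rep KO cells and 0 in WT, beside 2.16%, 2.30%, 1.71% and 0.531%. With at least 50% of the peak inside the window, start peaks were in 1 gene in KD, 3 in EV, 1 in K rep KO, 2 in K non-rep KO cells and 0 in WT, beside 0.702%, 1.03%, 0.778%, 0.601% and 0.108%. With 1 kb on both sides of the start they were in 20 in KD, 19 in EV, 19 in K rep KO, 11 in K non-rep KO cells and 5 in WT, beside 11.4%, 18.3%, 11.6%, 10.0% and 3.78%. With 5 kb flanks, peaks were in WT and not K rep KO in 0 of 36 genes, in K non-rep KO cells and not K rep KO in 1 of 37, and in WT and not EV in 2 of 36. With no flank they were in K non-rep KO cells and not K rep KO in 1 of 35. The cause of these shifts was not tested apart from list length. The 5 ratios of peak numbers stayed within their intervals under stricter q, stricter fold, 50% overlap, other flanks and covered bases, but with −log10 q of 5 or more the KD against EV ratio over all protein-coding genes was 0.412, beside 0.647 in the listed genes. No paired analysis was possible because each condition has 1 list. Depth limits what single genes show, since start peaks rest on 7 to 18 fragments.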

Other observations

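The peak of TEX19, a mammal-specific gene linked to transposon control in mouse, stood apart in fragment number. Its summit held 105 fragments in KD, 195 in EV, 74 in K rep KO, 73 in K non-rep KO cells and 124 in WT, over local backgrounds of 31.8, 32.4, 13.6, 13 and 39.9 fragments in the same order. The site, at 82359538 to 82361093 of chromosome 17, had the most summit fragments of the 33 sites found in all 5 lists.

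Start windows were searched on both strands for CACGTG, an E-box bound by MAX and its partners, and for GCGGGAA, an E2F-type site. The search was added after the data had been seen. CACGTG was found in a start window of 8 of the 16 genes with a start peak (BRDT, MAEL, STAG3, STK31, SYCE1, TDRD1, TDRD12 and TDRD5) and in 1 of the 17 genes without a start peak, DAZL. Of all 33 listed genes with a window 9 held it, or 27.3%. Among all protein-coding genes with a window 10.9% held it, and 12.3% of those with a start peak. A link between the motif and start peaks was not tested. GCGGGAA was found in 5 of 16 and 5 of 17 genes, 30.3% of the listed genes with a window, against 10.5% of all protein-coding genes. Both motifs contain a CpG, and the gene groups were not matched on CpG content. The windows of the listed genes held a median of 24 CpG, against 21 in those of all protein-coding genes. A match is a description of the letters in the window and says nothing of binding.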
